A study of Mus musculus with 6 samples.

Results

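The TNF superfamily pairs trimeric ligands, mostly made as membrane proteins and partly shed, with cysteine-rich receptors on the cell surface. Members were taken by gene symbol: every row named Tnfsf or Tnfrsf followed by a number and at most 1 letter. Added to these were Tnf, Lta, Ltb, Ltbr, Fas, Fasl, Cd27, Cd40 and Cd70 where present. This gave 39 of the 16603 genes in the count table, 15 ligand genes and 24 receptor genes. The libraries were made from total RNA of mouse liver, 3 labelled wild-type (WT) and 3 labelled Mdr2 knockout (Mdr2-/-). Mdr2 is the older name of Abcb4, the transporter that places phosphatidylcholine in bile, and its loss is used as a model of bile duct injury with scarring. The labels give no age, sex, strain or knockout allele, nor how many animals each library holds. The series title places the comparison in a study of liver progenitors, ductular reaction, fibrosis and hedgehog signalling.

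As background, family receptors differ in their cytoplasmic parts. Receptors with a death domain, such as Fas and Tnfrsf1a, can recruit FADD or TRADD and start caspase-dependent death, and others bind TRAF adaptors directly and drive NF-kappaB and JNK signalling. In liver, TNF and Fas ligand are known for killing hepatocytes, TWEAK (encoded by Tnfsf12) for the growth of bile duct and progenitor cells, and lymphotoxin beta for the organization of lymphoid tissue around portal tracts. Signals from lymphotoxin beta receptor, CD40, RANK and Fn14 can run through the kinase NIK, encoded by Map3k14, which leads to processing of the Nfkb2 product and release of RelB.

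The libraries held 17100393 to 18124467 counts each. Of all genes, 12612 passed the filter on low counts and were tested with edgeR's quasi-likelihood test, and a gene passed at an adjusted p under 0.05. The targeted gene, Abcb4, was 324 ± 48.1 CPM (counts per 1000000 of TMM-scaled library size, SD, n = 3) in the WT-labelled and 482 ± 42.4 CPM in the knockout-labelled libraries, a log2 fold change of 0.57 (edgeR adjusted p = 0.00389), which goes against the label. The labels do not say which part of the gene the allele removes, so this count cannot check the genotype, and the groups are called WT-labelled and knockout-labelled throughout. The columns taken as wild-type carry a letter that no title explains and were matched by elimination, and each direction below rests on that match.

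Of the 39 members, 17 had enough reads for the test, and 8 were higher in the knockout-labelled libraries, 1 was lower and 8 did not pass. Over all 12612 tested genes, 20.9% were higher and 16.3% lower, 37.1% in all. The higher ones were the ligand genes Ltb, 6.62-fold, and Tnfsf12, 1.92-fold, and the receptor genes Tnfrsf10b, Tnfrsf11a, Tnfrsf19, Tnfrsf21, Tnfrsf12a and Tnfrsf14, from 1.33-fold to 3.68-fold. The lower one was Ltbr, at 0.793 times its WT-labelled level. With total-count scaling 12 members were higher and 0 lower, in a fit where 47.1% of all tested genes were higher and higher calls made up 94.7% of all calls, against 56.2% with TMM and 67.2% with upper-quartile scaling.

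The tested member with the largest fold, Ltb, shares a locus with Tnf and Lta on chromosome 17, from 35194439 to 35205351 (GRCm38), a span of 10913 bases. Ltb and Tnf were higher in the knockout-labelled libraries while Lta was at or near 0 throughout, so the sequence before each gene's start is shown. These are the bases before the RefSeq start (GRCm38.p6), 5′ to 3′ on the gene's strand, cut where an earlier GENCODE start would place them inside a transcript. Capitals mark the NF-kappaB consensus in Ltb and the letters TATAAA in Tnf and Lta.
Ltb, chr17:35194257-35194438, plus strand: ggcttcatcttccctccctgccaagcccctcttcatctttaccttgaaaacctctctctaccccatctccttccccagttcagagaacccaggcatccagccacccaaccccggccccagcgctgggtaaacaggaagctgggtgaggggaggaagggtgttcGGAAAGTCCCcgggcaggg
Tnf, chr17:35202008-35202257, minus strand: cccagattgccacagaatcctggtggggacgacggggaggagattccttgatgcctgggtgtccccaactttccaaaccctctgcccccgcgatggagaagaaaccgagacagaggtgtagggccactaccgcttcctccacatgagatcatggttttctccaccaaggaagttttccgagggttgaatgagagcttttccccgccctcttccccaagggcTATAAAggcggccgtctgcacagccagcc
Lta, chr17:35205352-35205601, minus strand: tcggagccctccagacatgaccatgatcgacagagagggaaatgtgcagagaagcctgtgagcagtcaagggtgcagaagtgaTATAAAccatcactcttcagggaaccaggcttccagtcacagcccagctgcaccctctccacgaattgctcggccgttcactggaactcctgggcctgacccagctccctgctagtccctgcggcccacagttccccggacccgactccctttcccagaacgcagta

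The match in Ltb, GGAAAGTCCC, began 87 bases before the RefSeq start. The bases shown for Ltb end sooner, before its GENCODE start at 35194439. Searched on both strands of the 250 bases before the start, the consensus was found in 1204 of 27025 genes (4.46%). Among the 31 members with a promoter entry it was found in 3: Ltb, Tnfrsf8 and Tnfrsf9. All motif counts used the full 250 bases, also where an earlier GENCODE start places them inside a transcript. The Tnfrsf9 matches are such a case: their window, 150927749 to 150927998 on chromosome 4, lies inside the gene by its GENCODE start at 150914562. Of the 6 members with an entry that were higher in the knockout-labelled libraries, Ltb was the 1 with a match. TGANTCA, an AP-1 site, was present in 6 of the 31 members and 7.82% of all genes, and in 0 of those 6. TATAAA was found in 6 of the 31 members and in 14.3% of all genes; in Tnf it began 29 bases and in Lta 167 bases before the start. No motif overlapped another in the 3 windows shown. A match describes letters only, and a motif outside these 250 bases would not be seen.

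Ltb encodes lymphotoxin beta, which is held on lymphocyte surfaces with lymphotoxin alpha. It stood at 0.381, 0.319 and 0.631 CPM in WT-labelled replicates 1 to 3 and at 3.47, 2.72 and 2.75 CPM in knockout-labelled replicates 1 to 3. The groups did not overlap, and the lowest knockout-labelled library lay above the highest WT-labelled library. The edgeR log2 fold change was 2.73 (SE 0.33, adjusted p = 0.000202), a 6.62-fold difference. Under the 14 alternative analyses it ran from 2.53 to 3.05 and passed in each. Ltb passed the filter on low counts through the knockout-labelled group alone, where it is high. In the fit without that filter its edgeR adjusted p was 2.23e-05. Tissue RNA holds many cell types, and a change in cell number cannot be told apart here from a change in RNA per cell.

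Tnf encodes the founding cytokine of the family, made chiefly by macrophages and T cells. Its counts were 0, 0 and 1 in the WT-labelled and 15, 6 and 16 in the knockout-labelled libraries. The filter on low counts left it out of the main test. Over the groups, 1 count against 37 gave a ratio of 29.5, with an exact 95% counting interval of 4.97 to 1196. In the fit without that filter the edgeR adjusted p was 0.00287. Lta, the partner of Ltb in the lymphotoxin trimer, had counts of 1, 0 and 1 in the WT-labelled and 0 in each knockout-labelled library, where 3 counts equal 0.149 to 0.156 CPM. With so few reads no difference in Lta was detectable at this depth.

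Tnfsf12, the TWEAK gene, lies on chromosome 11 from 69686250 to 69695849. It had 2.42, 2.75 and 4.04 CPM in the WT-labelled and 5.51, 6.39 and 5.77 CPM in the knockout-labelled libraries, with no overlap. The edgeR log2 fold change was 0.94 (SE 0.21, adjusted p = 0.00628), and the call held in each of the 14 alternatives. Its neighbour Tnfsf13, which encodes the B cell factor APRIL, summed to 7 counts in the WT-labelled and 15 in the knockout-labelled libraries. A read-through gene, Tnfsfm13, spans both genes, and reads shared with it could be lost or moved by the counting, so both values are uncertain.

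Tnfsf10, the TRAIL gene, whose product binds the death receptor of Tnfrsf10b, ran from 2.97 to 4.41 CPM in the WT-labelled and from 3.48 to 6.99 CPM in the knockout-labelled libraries. The groups overlapped and the difference did not pass (edgeR log2 fold change 0.49, SE 0.26, adjusted p = 0.172). Without knockout-labelled replicate 3, the lowest of its group, the log2 fold change was 0.71 and the adjusted p 0.0367.

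Those 3 ligands were the ones that passed the filter, and 2 of them were higher, while 20.9% of all tested genes were higher. Of these 2, Ltb passed the filter through the knockout-labelled group alone. The other 12 ligand genes had at most 26 counts in any library. Tnfsf13b encodes BAFF, the survival factor of B cells. It had 4, 3 and 6 counts in the WT-labelled and 18, 10 and 26 in the knockout-labelled libraries, with no overlap (log2 fold change 1.69, adjusted p = 0.0288, edgeR without the filter). Fasl, which encodes Fas ligand of cytotoxic lymphocytes, had 0 counts in the WT-labelled libraries and 3, 2 and 7 in the knockout-labelled libraries. With the WT-labelled group set at the floor of 3 counts in all and the knockout-labelled counts taken as exact, the ratio was 3.19. The edgeR adjusted p was 0.0413 without the filter.

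The osteoclast factor gene Tnfsf11 (RANKL) had 0 counts against 2, 1 and 2, a ratio of 1.33 on the same floor. That ratio leaves out the counting error of the knockout-labelled counts. Its edgeR adjusted p in the fit without the filter was 0.159. For Tnfsf8, the CD30 ligand gene, 1 count against 15 gave a ratio of 12 (95% counting interval 1.84 to 503), but the groups overlapped and the adjusted p was 0.0721. Tnfsf14, the LIGHT gene, had 12 counts over the WT-labelled and 26 over the knockout-labelled libraries, with WT-labelled replicate 1 at 9 inside the other group's range of 4 to 12. Tnfsf9, Tnfsf18, Tnfsf15 and Tnfsf4 had at most 3 counts in any library.

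**Figure D1:**
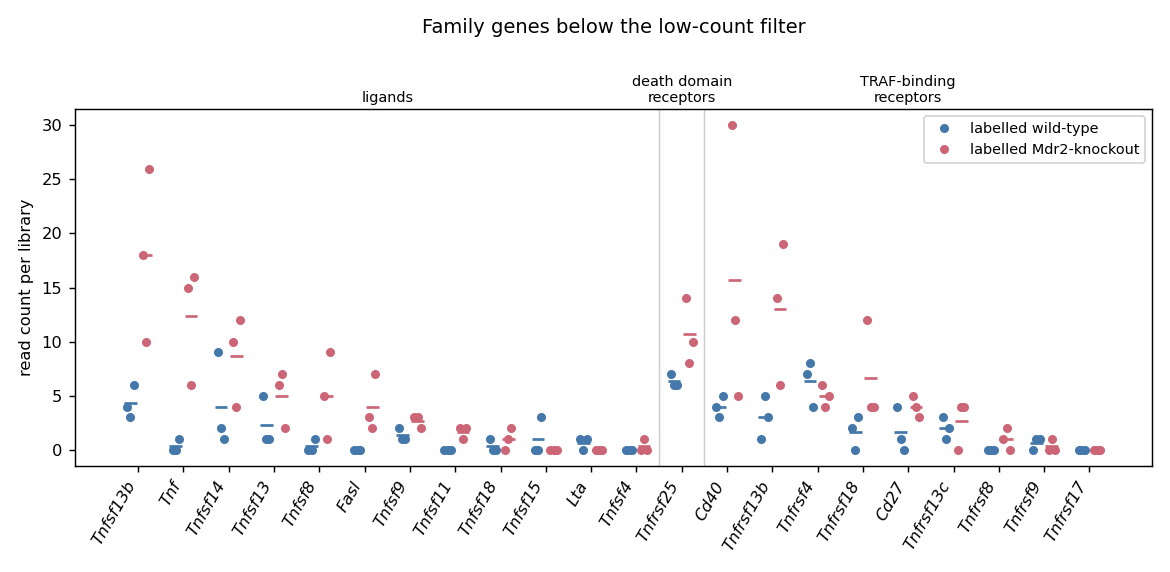
Read counts per library (vertical axis) of the 22 family genes left out of the main test by the filter on low counts; points are libraries, short lines are group means over 3 libraries, and vertical lines divide the genes by role. Tnf and Tnfsf13b lie higher in each knockout-labelled library than in any WT-labelled library, and Cd40 has 1 library at 30 counts and another at 5.

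Summed over the 15 ligand genes, the level was 7.92 to 8.58 CPM in the WT-labelled and 16.1 to 19.0 CPM in the knockout-labelled libraries. For the 24 receptor genes it was 275 to 310 CPM and 280 to 326 CPM, with overlap. Per length, in the deposited FPKM (fragments scaled to transcript length and library total), ligands made up 2.53% to 2.97% of the family's summed level in the WT-labelled and 5.79% to 7.62% in the knockout-labelled libraries. These sums are descriptions of the members and were not tested.

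Of the markers tested for cells that make these ligands, 9 of 10 monocyte and macrophage genes were higher and 0 lower, with a summed level of 116 to 203 CPM in the WT-labelled and 392 to 393 CPM in the knockout-labelled libraries. Dendritic cell markers were higher for 5 of 6 (63.2 to 79.7 CPM against 198 to 244 CPM). Cd74, at a mean of 49.8 against 166 CPM, made up most of these sums. Among markers of T and NK cells 0 of 4 were higher and 1 was lower (8.96 to 12.9 CPM against 7.65 to 8.58 CPM). The lower one, Zap70 (5.98, 8.43 and 5.49 against 1.79, 1.86 and 1.82 CPM), made up a large part of the WT-labelled sums. The other tested ones, Cd4, Lck and Klrb1c, had log2 fold changes of 0.71, 0.58 and 0.52 and did not pass. Of 4 B and plasma cell markers 1 was higher and 0 were lower (428 to 512 CPM against 478 to 518 CPM). Sdc1 (mean 269 against 306 CPM) and Xbp1 (mean 194 against 191 CPM), which did not pass, made up most of these sums. The T cell receptor subunit genes Cd3d, Cd3e and Cd3g and the B cell genes Ms4a1 and Cd79b were too low to be tested. Cd8a (3, 1 and 4 counts against 8, 11 and 10) and Ncr1 (1, 2 and 0 against 4, 5 and 5) were also untested. For both, the groups did not overlap in CPM and the knockout-labelled libraries lay above. The remaining untested T and NK cell markers overlapped. Of 6 Kupffer cell markers, 1 was higher and 1 lower (273 to 412 CPM against 326 to 412 CPM). Neutrophil markers were higher for 3 of 4 (3.75 to 8.96 CPM against 12.6 to 15.6 CPM), with Ly6g at 0 in all 6 libraries. Over all tested genes, 20.9% were higher and 16.3% lower. The part of these cells in the ligand values was not tested.

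Among the receptors, the order of levels per length was led by few genes. In the deposited FPKM, Ltbr stood at 46.2 ± 2.47 (SD, n = 3), Tnfrsf1a at 35.3 ± 5.15, Tnfrsf1b at 8.52 ± 1.25, Tnfrsf12a at 6.69 ± 0.546 and Fas at 5.04 ± 0.326 in the WT-labelled libraries. These 5 made up 90.9% to 92.0% of the family's summed FPKM there and 83.0% to 86.7% in the knockout-labelled libraries. In the WT-labelled group each of the 3 Ltbr values, from 43.4 to 48.2 FPKM, lay above each Tnfrsf1a value, from 32.1 to 41.2 FPKM. In the knockout-labelled group Ltbr (42.5 to 48.0 FPKM) and Tnfrsf1a (43.6 to 52.7 FPKM) overlapped. Tnfrsf12a changed its place against Tnfrsf1b: its FPKM ran below those of Tnfrsf1b in the WT-labelled group (6.24 to 7.3 against 7.64 to 9.96) and overlapped them in the other (9.83 to 18.2 against 9.17 to 12.0).

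At least 2-fold higher were 4 of the 17 tested members, against 11.1% of all tested genes. The groups did not overlap, with the knockout-labelled libraries above, for 8 of the 17, against 27.6% of tested genes. The median log2 fold change of the 17 was 0.49 and that of all tested genes 0.01. Of the 17, 3 (Ltb, Tnfrsf10b and Tnfrsf23) passed the filter through the knockout-labelled group alone. That way of passing favours genes that are higher there, so these shares are descriptions and no support. Without WT-labelled replicate 2 the count of higher members was 5, and with the low-count filter removed it was 11, against 17.3% of all genes with a count. The 3 added were Tnf, Fasl and Tnfsf13b, from the 21 untested members with a count, and 7.59% of all genes that the filter had left out were higher in that fit. The 22 members left out of the main test had 1 gene, Tnfrsf17, with no count. With 1 library left out, Tnf, Tnfsf13b, Tnfrsf13b and Cd40 entered the filtered test in some cases, but only through the knockout-labelled group where they are high, so those fits are no support. Their adjusted p there ran from 0.00413 to 0.0235 for Tnf, from 0.0156 to 0.0946 for Tnfsf13b, from 0.0282 to 0.166 for Tnfrsf13b and from 0.024 to 0.214 for Cd40. Of the 21 with a count, 5 had each knockout-labelled library above each WT-labelled library (Tnf, Fasl, Tnfsf11, Tnfsf13b and Tnfrsf18), close to the 19.0% of untested genes with a count.

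**Figure D2:**
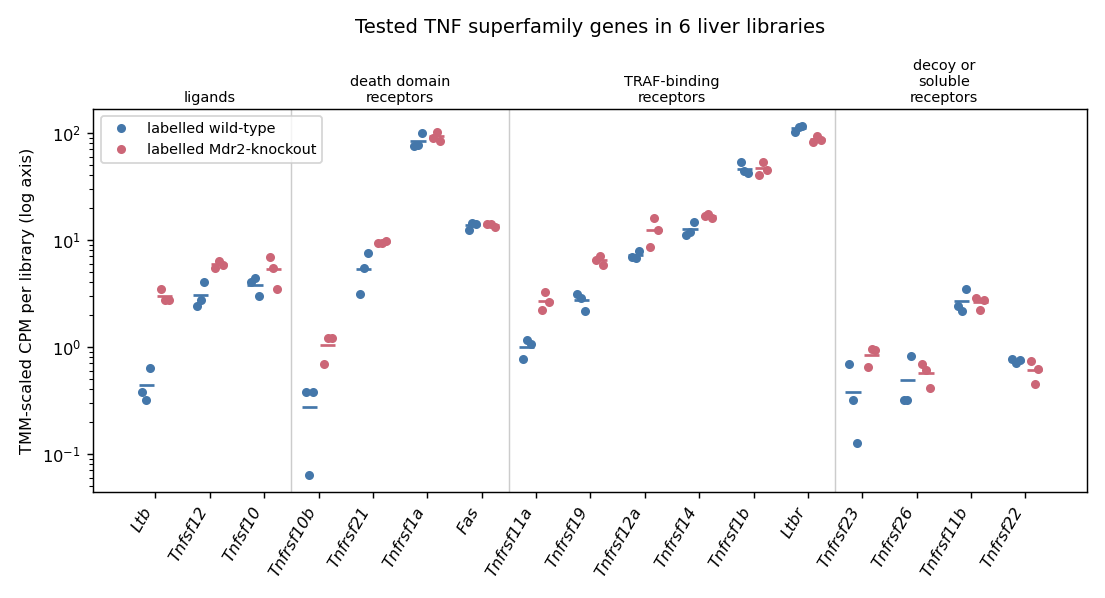
TMM-scaled CPM on a log axis for the 17 tested family genes, by role; points are the 6 libraries and short lines the means of 3 per labelled group. Ltb, Tnfsf12, Tnfrsf10b, Tnfrsf21, Tnfrsf11a, Tnfrsf19, Tnfrsf12a and Tnfrsf14 show no overlap with the knockout-labelled libraries above, and Ltbr shows none with them below.

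The receptors of the pathway through NIK did not move as 1 group. Tnfrsf11a, on chromosome 1 from 105780718 to 105847981, encodes RANK, the receptor of RANKL on osteoclast precursors and dendritic cells. It stood at 0.763, 1.15 and 1.07 CPM in the WT-labelled and at 2.23, 3.27 and 2.6 CPM in the knockout-labelled libraries (edgeR log2 fold change 1.43, SE 0.29, adjusted p = 0.00356). No library of 1 group reached the range of the other, and the call held in each of the 14 alternatives.

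Tnfrsf12a, on chromosome 17 from 23675445 to 23677468, encodes Fn14, the receptor of TWEAK and a surface protein of injured epithelium. Its values were 6.87, 6.77 and 7.82 CPM against 8.53, 16 and 12.3 CPM. The knockout-labelled libraries were all higher but spread widely, and replicate 1 was only a little above the WT-labelled range. The edgeR log2 fold change was 0.78 (SE 0.21, adjusted p = 0.0205). Leaving out WT-labelled replicate 1 or 2, or knockout-labelled replicate 2 or 3, gave adjusted p of 0.0744, 0.0788, 0.0561 and 0.0522. Cholangiocyte markers were higher for 12 of 12 tested genes, with summed levels of 62.7 to 83.1 CPM and 400 to 439 CPM in the WT-labelled and knockout-labelled groups. Spp1, at 36.1 ± 8.69 and 293 ± 19.2 CPM (SD, n = 3), made up a large part of both sums. The part of cholangiocytes in the Tnfrsf12a value was not tested.

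Ltbr, on chromosome 6 from 125306571 to 125313885, encodes the receptor of lymphotoxin and LIGHT and was the 1 member that was lower. It ran at 102, 114 and 115 CPM in the WT-labelled and at 82.1, 94 and 85.9 CPM in the knockout-labelled libraries. The groups did not overlap, and the edgeR log2 fold change was -0.33 (SE 0.08, adjusted p = 0.00819). This call depended on the scaling: with total counts, which shifted the tested genes' median by 0.29 on the log2 scale, it was -0.04 with an adjusted p of 0.679, and in the deposited FPKM, which use total counts, the groups overlapped. Cd40, the receptor of CD40 ligand on B cells and macrophages, had 4, 3 and 5 counts against 30, 12 and 5, so that knockout-labelled replicate 3 equalled the highest WT-labelled library. Its adjusted p without the filter was 0.078.

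The other receptors that bind TRAF proteins also differed among themselves. Tnfrsf19, on chromosome 14 from 60963875 to 61046490, encodes TROY, a receptor known from stem cells and the nervous system. Its values were 3.12, 2.87 and 2.15 CPM against 6.45, 7.1 and 5.82 CPM, with no overlap (edgeR log2 fold change 1.25, SE 0.19, adjusted p = 0.000851), and the call held in each of the 14 alternatives. Of 10 stellate cell and fibroblast markers 9 were higher (223 to 347 CPM against 596 to 722 CPM), and of 10 endothelial markers 2 were higher and 3 lower (258 to 293 CPM against 256 to 270 CPM); their part in the Tnfrsf19 value was not tested. A gene on the other strand, Gm41168, overlaps it, and whether the counting used strand is not stated in the labels.

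Tnfrsf14, on chromosome 4 from 154921933 to 154928563, encodes HVEM, a receptor of LIGHT found on lymphocytes and epithelium. It had 11.1, 11.8 and 14.8 CPM against 16.7, 17.4 and 15.9 CPM, a small gap between the groups (edgeR log2 fold change 0.41, SE 0.12, adjusted p = 0.0247). Without WT-labelled replicate 1 or 2, or knockout-labelled replicate 1 or 2, the adjusted p was 0.0918, 0.0948, 0.0619 and 0.0791. Tnfrsf1b, the second TNF receptor, carried mainly by leukocytes and endothelium, ran from 41.8 to 53.3 CPM and from 40.6 to 53.6 CPM. These ranges nearly coincided (edgeR log2 fold change 0.00, SE 0.12, adjusted p = 0.986).

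The lymphocyte receptor genes of this class were low. Tnfrsf13b, which encodes TACI, a receptor of BAFF and APRIL on B cells, had 1, 5 and 3 counts against 14, 6 and 19 (adjusted p = 0.0603, edgeR without the filter). Tnfrsf18 (GITR of T cells) had 2, 0 and 3 against 12, 4 and 4, with an adjusted p of 0.201 in the same fit. Tnfrsf4 (OX40), Cd27 and Tnfrsf13c (the BAFF receptor) had at most 8 counts in any library and overlapping groups. Tnfrsf8 (CD30) and Tnfrsf9 (4-1BB) had at most 2, and the plasma cell receptor gene Tnfrsf17 (BCMA) had 0 in all 6.

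Among the death domain receptors, 2 of the 4 tested were higher and 2 did not pass, while 20.9% of all tested genes were higher. Tnfrsf10b, on chromosome 14 from 69767472 to 69784411, encodes the mouse TRAIL receptor that signals death. It had 6, 1 and 6 counts in the WT-labelled and 14, 24 and 23 in the knockout-labelled libraries, which is 0.275 ± 0.183 CPM against 1.03 ± 0.293 CPM (SD, n = 3). Tnfrsf10b passed the filter on low counts through the knockout-labelled group alone, where it is high. In the fit without that filter its edgeR adjusted p was 0.0181. The groups did not overlap, and in the main test the edgeR log2 fold change was 1.88 (SE 0.52, adjusted p = 0.0178). WT-labelled replicate 2, with its single count, weighed on this value: without it the log2 fold change was 1.41 and the adjusted p 0.0613, and without knockout-labelled replicate 2 they were 1.75 and 0.0577.

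Tnfrsf21, on chromosome 17 from 43016555 to 43089189, encodes DR6, a death receptor of neurons and lymphocytes. Its values were 3.12, 5.43 and 7.51 CPM against 9.33, 9.27 and 9.77 CPM. The WT-labelled libraries spread over more than a 2-fold range while the knockout-labelled libraries lay close together (edgeR log2 fold change 0.82, SE 0.26, adjusted p = 0.0342). The adjusted p was 0.0988 without WT-labelled replicate 2, and 0.0841, 0.0805 and 0.0861 without knockout-labelled replicate 1, 2 or 3.

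The differences in Fas and Tnfrsf1a, the best known death receptor genes of hepatocytes, did not pass. Fas, the receptor of Fas ligand, ran at 12.4, 14.4 and 14.1 CPM against 14.2, 14 and 13.3 CPM (edgeR log2 fold change 0.02, SE 0.10, adjusted p = 0.889). Tnfrsf1a, the first TNF receptor, ran at 76.1, 77.8 and 98.7 CPM against 90, 103 and 84.7 CPM (0.14, SE 0.11, edgeR adjusted p = 0.368). The groups overlapped for both genes, whose calls changed with total-count scaling: there Fas was 0.32 (edgeR adjusted p = 0.0249) and Tnfrsf1a 0.43 (edgeR adjusted p = 0.00895). Hepatocyte markers were lower for 6 and higher for 1 of 10, with summed levels of 115891 to 125291 CPM and 78311 to 82200 CPM, and their part in these values was not tested. Tnfrsf25 (DR3), the lymphocyte death receptor, had 6 to 7 counts per WT-labelled and 8 to 14 per knockout-labelled library, overlapping in CPM, and was not tested.

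Among the soluble and decoy receptors, 0 of 4 tested genes passed under edgeR, and 0 under DESeq2 or limma-voom. Over all tested genes 37.1% passed with edgeR in either direction, so 4 genes are too few to set this class apart. The smallest unadjusted edgeR p of the 4 was 0.0517, for Tnfrsf23. Tnfrsf11b encodes osteoprotegerin, the secreted decoy for RANKL and TRAIL. It ran at 2.42, 2.17 and 3.47 CPM against 2.88, 2.22 and 2.75 CPM (edgeR log2 fold change -0.04, SE 0.24, adjusted p = 0.92). Tnfrsf22 and Tnfrsf23, decoys for TRAIL that lack a death domain, and their neighbour Tnfrsf26 form a cluster on chromosome 7 from 143607659 to 143685872. They had at most 19 counts in any library. Tnfrsf23 had 11, 5 and 2 counts against 13, 19 and 18 (edgeR log2 fold change 1.13, SE 0.52, adjusted p = 0.108), and the other two had log2 fold changes of -0.28 and 0.23. These 3 genes are close copies, and E230032D23Rik overlaps them on the other strand, so their single values are uncertain. Without WT-labelled replicate 1 the edgeR adjusted p of Tnfrsf23 was 0.0373, and with total-count scaling it was 0.0404. Tnfrsf23 passed the filter in the main test through the knockout-labelled group alone.

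**Figure D3:**
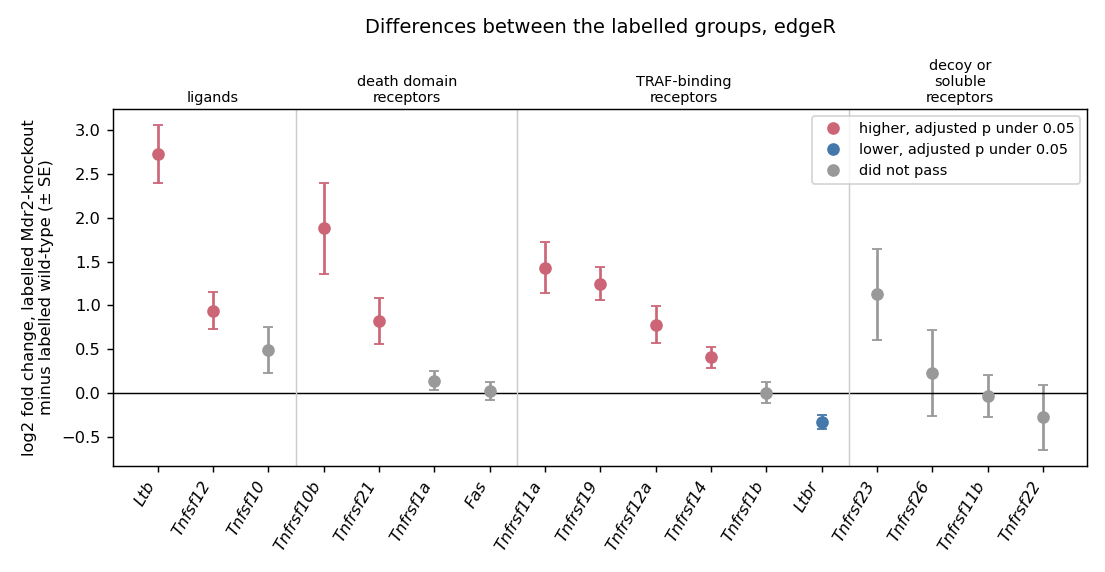
Log2 fold changes (knockout-labelled minus WT-labelled) with standard errors from edgeR for the 17 tested family genes, by role. Ltb stands highest at 2.73 and Ltbr, at -0.33, is the 1 gene called lower, while the decoy receptors and Fas, Tnfrsf1a and Tnfrsf1b did not pass.

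Where a ligand and its receptor were both measured, they did not always move together. TWEAK and Fn14 were both higher (Tnfsf12 0.94 and Tnfrsf12a 0.78 on the log2 scale). Ltb rose by 2.73 on the log2 scale, with its receptor gene Ltbr at -0.33. The RANK gene rose by 1.43, while the ligand gene Tnfsf11 had 5 counts in all and its decoy Tnfrsf11b was at -0.04. The TRAIL receptor gene Tnfrsf10b rose by 1.88 with Tnfsf10 at 0.49, which did not pass.

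Of 6 further family genes whose symbols the rule does not take, 4 were tested and 2 were higher (50%, against 20.9% of all tested genes). Eda, the ectodysplasin ligand gene, went from 1.74 ± 0.089 to 3.43 ± 0.681 CPM (SD, n = 3; edgeR log2 fold change 0.98, SE 0.23, adjusted p = 0.00821). Its receptor gene Eda2r, a p53 target, went from 0.424 ± 0.0389 to 1.27 ± 0.353 CPM (1.57, SE 0.38, edgeR adjusted p = 0.00955). Eda2r had 7, 7 and 6 counts in the WT-labelled and 26, 18 and 31 in the knockout-labelled libraries. It passed the filter on low counts through the knockout-labelled group alone, where it is high, so the share of 50% is a description and no support. Relt (1.11, edgeR adjusted p = 0.102) and the neurotrophin receptor gene Ngfr (0.34, edgeR adjusted p = 0.448) did not pass.

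Shedding of membrane ligands and receptors depends on ADAM proteases and the iRhom proteins that mature ADAM17. Of the 6 listed, 4 passed and were higher (66.7%, against 20.9% of all tested genes), and 0 were lower. Rhbdf1, an iRhom gene, went from 5.12 ± 0.893 to 13.7 ± 0.125 CPM (SD, n = 3; edgeR log2 fold change 1.42, SE 0.14, adjusted p = 6.87e-05). Rhbdf2, the second iRhom gene, was at 0.58 (edgeR adjusted p = 0.00453), the protease gene Adam8 at 1.15 (edgeR adjusted p = 0.0216), and Timp3, which encodes an inhibitor of ADAM17, at 0.68 (edgeR adjusted p = 0.000814). Adam17 itself (0.14, edgeR adjusted p = 0.237) did not pass, though with total-count scaling all 6 were higher.

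Of 22 TRAF and adaptor genes, 5 were higher and 2 lower, with a median log2 fold change of -0.04. The share of higher genes, 22.7%, was close to the 20.9% of all tested genes. Traf1, an adaptor that NF-kappaB itself induces, went from 0.212 ± 0.0732 to 1.25 ± 0.433 CPM (SD, n = 3; edgeR log2 fold change 2.52, SE 0.48, adjusted p = 0.00267). Traf1 had 2, 4 and 4 counts against 24, 17 and 33 and passed the filter through the knockout-labelled group alone, where it is high. Birc2, which encodes the ubiquitin ligase cIAP1, was at 0.57 (edgeR adjusted p = 0.00103) and Tnip1, a partner of A20, at 0.98 (edgeR adjusted p = 0.002). The lower genes were Otulin, a deubiquitinase of linear chains, at -0.45 (edgeR adjusted p = 0.00236) and Rnf31, the ligase HOIP, at -0.35 (edgeR adjusted p = 0.0119). Sharpin (-0.18, edgeR adjusted p = 0.152) and Rbck1 (-0.07, edgeR adjusted p = 0.53), which encode HOIP's partners, and the deubiquitinase gene Cyld (-0.06, edgeR adjusted p = 0.553) did not pass. With total-count scaling neither Otulin nor Rnf31 passed, and 12 of the list were higher and 0 lower. Rbck1 (0.23, edgeR adjusted p = 0.0297) and Cyld (0.23, edgeR adjusted p = 0.0248) were among the higher genes there.

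Of 24 NF-kappaB and kinase genes, 7 were higher (29.2%, against 20.9% of all tested genes) and 3 lower, with a median of 0.07. Among the higher genes, Nfkb2, whose product NIK acts on, went from 9.08 ± 1.33 to 18.7 ± 3.71 CPM (SD, n = 3; edgeR log2 fold change 1.04, SE 0.17, adjusted p = 0.00126), its partner gene Relb from 1.95 ± 0.745 to 6.01 ± 1.16 CPM (1.62, SE 0.27, edgeR adjusted p = 0.00128) and Map3k14, the NIK gene, from 4.8 ± 1.01 to 10.4 ± 1.86 CPM (1.12, SE 0.19, edgeR adjusted p = 0.0014). Tnfaip3, which encodes the feedback inhibitor A20, went from 4.05 ± 1.39 to 14.3 ± 0.476 CPM (1.82, edgeR adjusted p = 0.000198), and the inhibitor gene Nfkbie was at 1.43. The subunit genes Nfkb1 (0.35, edgeR adjusted p = 0.00713) and Rel (0.41, edgeR adjusted p = 0.044) were also higher, while the subunit gene Rela (-0.16, edgeR adjusted p = 0.156) and the inhibitor gene Nfkbia (-0.31, edgeR adjusted p = 0.464) did not pass. Chuk, which encodes the kinase IKK-alpha that NIK activates, was lower at -0.39 (edgeR adjusted p = 0.0039), as were Map3k7 and Map2k4. Map2k4 did not pass with upper-quartile scaling (edgeR adjusted p = 0.0763), and with total-count scaling none of the 3 passed and the list was higher for 13 and lower for 0. Map3k14, Nfkb1, Rel, Rela, Nfkbia and Chuk were chosen after their values were seen.

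Death execution genes were higher for 2 of 15 (13.3%, against 20.9% of all tested genes) and lower for 0. Mlkl, the pore-forming protein gene of necroptosis, went from 2.94 ± 0.239 to 11.3 ± 2.77 CPM (SD, n = 3; edgeR log2 fold change 1.94, SE 0.21, adjusted p = 0.000104), and the apoptosome gene Apaf1 from 3.11 ± 0.629 to 7.37 ± 0.549 CPM (1.24, edgeR adjusted p = 0.000666). The initiator caspase gene Casp8 (-0.12, edgeR adjusted p = 0.446), its inhibitor gene Cflar (-0.27, edgeR adjusted p = 0.069) and Ripk3, whose kinase activates MLKL (0.26, edgeR adjusted p = 0.604), did not pass. With total-count scaling 9 of the 15 were higher.

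Of 19 genes known to be induced by TNF, 13 were tested, 8 were higher and 1 was lower, and the median log2 fold change was 1.14. The share of higher genes was 61.5%, against 20.9% of all tested genes. Of the higher genes, Ccl2, Bcl2a1b and Cxcl2 passed the filter on low counts through the knockout-labelled group alone, where they are high. Cxcl2, for example, had 1, 4 and 3 counts against 16, 16 and 10. The share is a description and no support. The monocyte chemokine gene Ccl2 went from 0.255 ± 0.17 to 3.87 ± 0.404 CPM (SD, n = 3; edgeR log2 fold change 3.89, SE 0.37, adjusted p = 5.17e-05), and the macrophage growth factor gene Csf1 from 7.13 ± 1.19 to 19 ± 2.66 CPM (1.41, edgeR adjusted p = 0.000107). Bcl2a1b, a survival gene of leukocytes, was at 2.53 and Tnfaip8 at 1.45. Sod2, the mitochondrial superoxide dismutase gene, was lower at -0.28 (edgeR adjusted p = 0.0206), a call that neither upper-quartile nor total-count scaling kept. Several of these genes are expressed by macrophages, whose markers were higher as given above, and the part of those cells was not tested.

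**Figure D4:**
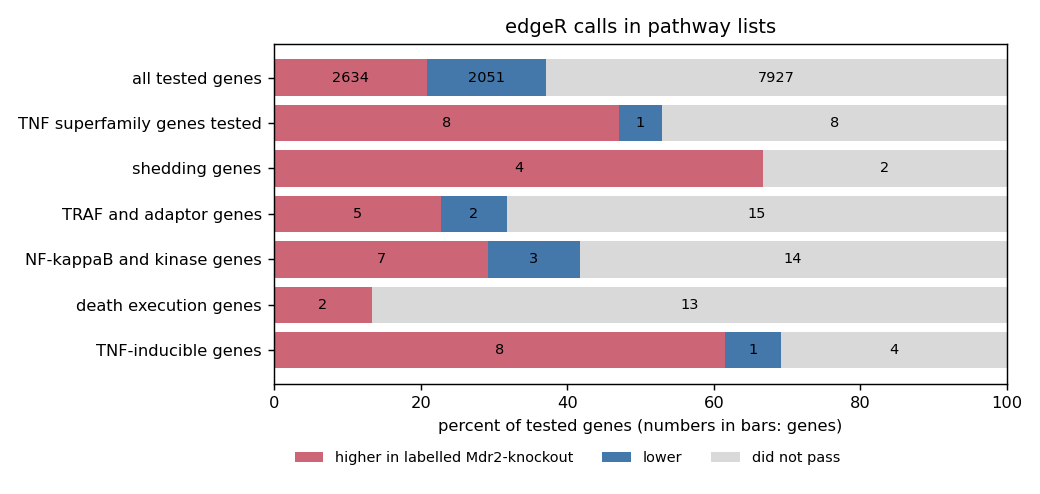
Share of tested genes higher, lower or not passed (edgeR adjusted p under 0.05) in the family and 5 pathway lists beside all tested genes, with gene numbers in the bars. The share of higher genes is largest in the shedding list (4 of 6) and smallest in the death execution list (2 of 15).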

How the data were processed

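RNA from 6 mouse liver samples was sequenced. The authors deposited raw read counts per gene symbol, and FPKM that, tested here on 9571 genes, equalled a gene constant times count over library total. The submitters' processing notes name HISAT2, Bowtie2, HTSeq, StringTie, Cufflinks, DESeq, Trimmomatic and SAMtools, and build mm10; their roles and versions, the annotation and whether strand was used are not stated there. Columns lettered M were matched to Mdr2 titles and N to wild-type by elimination, with 0 columns left over. Whether replicates came from different animals is not stated, so p-values reflect sample-to-sample spread alone, which may be technical.

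Counts were fitted with edgeR 4.0.16 (R 4.3.3, robust quasi-likelihood, TMM, filterByExpr with a minimum count of 10 and total of 15, group as the only term), with Benjamini-Hochberg adjustment over all 12612 tested genes and a threshold of 0.05. Each SE is the log2 fold change divided by the root of its F value. CPM are counts per 1000000 of TMM-scaled library size. The floor was 3 counts, and ratios of low counts carry exact 95% intervals. Both cover counting error only, and a ratio on the floor takes the other group's counts as exact. Coordinates are from GENCODE M21 and promoters from RefSeq, both on GRCm38. The pipeline was tested on simulated counts. Alternatives were no filter, DESeq2 1.42.0, limma-voom (limma 3.58.1), scaling by RLE, by upper quartile or by total count, a filter of 1 CPM in 3 libraries, a replicate block, and each library left out. Each member found by the symbol rule is reported, called members with a value per library. Of other lists, up to 4 genes with the smallest p were named, and any further gene was chosen after its value was seen. Members and lists were chosen with earlier results of these data known. Shares of higher genes in the lists are descriptions and no support, as some listed genes passed the filter through the knockout-labelled group alone. Cd70 was searched for by the symbol rule and had no row in the count table.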

Additional observations from a re-analysis of the deposited data

How the results depend on the processing

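The counts of higher members, 8 in the main analysis, were 7 to 12 under the other scalings, tests, filters and the replicate block. The count of lower members, 1, was 0 with total-count scaling, which raised the higher calls over all tested genes from 2634 to 5943 and cut the lower calls from 2051 to 330; the share of calls that were higher went from 56.2% to 94.7%, and was 67.2% with upper-quartile scaling. Without the low-count filter 5 ligands were higher in place of 2, since Tnf, Fasl and Tnfsf13b were then tested; 3 were higher with total counts. Leaving out 1 library gave 5 to 10 higher members, 2 to 6 higher receptors against 6, and 2 to 4 higher ligands. The receptor count was 2 without WT-labelled replicate 2 and 3 without knockout-labelled replicate 2, and 4 ligands were higher without WT-labelled replicate 3 or knockout-labelled replicate 2, where the filter asks for fewer libraries and admits more genes. Over all tested genes it gave 2092 to 2603 higher and 1449 to 2006 lower calls. Of the 8 higher members, 4 (Ltb, Tnfsf12, Tnfrsf11a and Tnfrsf19) passed in all 14 alternatives. The sign of some members near 0 was not stable, and the cause was not tested: Tnfrsf11b was 0.02 with upper-quartile and 0.25 with total-count scaling, Tnfrsf22 was 0.01 with total counts, and Tnfrsf1b was -0.01 with RLE factors, with DESeq2 and without the filter. With 1 library left out, Fas ran from -0.05 to 0.05, Tnfrsf11b from -0.18 to 0.18, Tnfrsf1b from -0.12 to 0.10 and Tnfrsf26 from -0.01 to 0.82. Whether the replicate numbers pair the libraries is not stated in the labels. Same-numbered libraries correlated at 0.08, 0.04 and -0.08 in their deviations across genes, and other-numbered libraries at -0.12 to 0.07. So few values, taken from deviations that sum to 0 within each group, cannot decide it. The replicate block gave 8 higher and 1 lower members and 2576 higher and 1992 lower genes, so it changed no count of members.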
